A study of Mus musculus with 6 samples.

Results

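To follow one signalling pathway through macrophages exposed to cisplatin-treated tumour cells, 10 genes of transforming growth factor-β (TGF-β) signalling were read from a table of 54532 genes. They are the ligand genes Tgfb1, Tgfb2 and Tgfb3, the receptor genes Tgfbr1, Tgfbr2 and Tgfbr3, the activin subunit gene Inhba, the inhibitor gene Smad7, the latency gene Ltbp1 and the target gene Tgfbi. They were matched by gene symbol, each to a single row, and all 10 passed the filter on low values that left 13441 genes tested. The 6 libraries hold poly(A)-selected RNA from bone marrow-derived macrophages (BMDMs) of C57BL/6 mice after co-culture with ID8, a single tumour line derived from mouse ovarian surface epithelium. For the 3 cisplatin libraries the tumour cells were first exposed to cisplatin at 40 µM, a DNA-damaging platinum compound, and for the 3 PBS libraries to phosphate-buffered saline alone. Neither the co-culture time nor the way the cells were separated before RNA extraction is given in the sources used here, and the study's methods describe the marrow cells as monocytes. The study's methods speak of biological replicates and of experiments repeated in triplicate in general terms, without saying whether the 3 libraries of a group came from separate mice or cultures, so errors and p-values measure the spread between these libraries, which may be technical. The 10 genes were chosen with results of this same contrast known, so their differences between cisplatin and PBS are given as descriptions, with no p-value, and whether a gene met the calling rule given below only describes its size and spread.

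TGF-β ligands are made as latent complexes, in which the propeptide stays wrapped around the growth factor and is often tethered to a latent TGF-β binding protein in the matrix or to a carrier protein on the cell surface. Once released, the ligand binds the type II receptor, which activates the type I receptor, and SMAD proteins then carry the signal to the nucleus. In macrophages TGF-β is best known for dampening inflammatory gene expression and for maintaining resident identities such as that of microglia. Activins are related ligands that use their own receptors and the same SMAD2 and SMAD3 proteins.

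The 3 ligand genes did not move together. By ratio of mean levels, Tgfb1 was 2.06-fold higher in the cisplatin libraries, Tgfb2 11.97-fold lower and Tgfb3 9.87-fold lower, while the sum of the 3 was nearly the same in both groups on the deposited scale. Tgfbi, a secreted matrix protein gene named for its induction by TGF-β, was 3.70-fold higher, and Ltbp1 was 3.90-fold lower. Tgfbr1 and Inhba were each 1.42-fold higher and Tgfbr3 was 1.86-fold lower, while the libraries of the 2 groups overlapped for the receptor gene Tgfbr2 and the inhibitor gene Smad7. In bulk RNA such as this, fewer cells of a type and less RNA per cell cannot be told apart. A gene was called where limma gave a Benjamini-Hochberg adjusted p below 0.05 and its log2 fold change reached 1 in size, and 2 of the 10 genes were called higher (Tgfb1 and Tgfbi) and 3 lower (Tgfb2, Tgfb3 and Ltbp1). Of all tested genes 4.67% were called higher and 11.3% lower, and 15.9% either way. The median log2 fold change was -0.024 over the 10 genes and -0.0011 over all tested genes.

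Start regions are shown for 2 genes that were higher and 2 that were lower, since the ligand genes are known for promoters of different build. RefSeq windows on GRCm38.p6 were matched for 7 of the 10 genes, in 9 windows, and the 250 bases before each start were searched, less any base that the annotation gives to an untranslated region. Both strands were searched. The TATA box was read as TATAAA and the cAMP response element as TGACGTCA. For the E-box, a site of basic helix-loop-helix factors, the letters were CACGTG. The GC box, bound by Sp1-type factors, was read as GGGCGG. The AP-1 site, bound by Fos and Jun proteins, was read as TGANTCA, with N for any base, and the SMAD binding element as GTCTAGAC. No 2 matches overlapped in the windows shown, and capitals mark every match. The sequences run 5′ to 3′ on the strand of the gene, for Tgfb1 at chr7:25686752-25687001 (plus), Tgfbi at chr13:56609336-56609522 (plus), Tgfb2 at chr1:186705990-186706239 (minus) and Ltbp1 at chr17:75005279-75005528 (plus).
Tgfb1: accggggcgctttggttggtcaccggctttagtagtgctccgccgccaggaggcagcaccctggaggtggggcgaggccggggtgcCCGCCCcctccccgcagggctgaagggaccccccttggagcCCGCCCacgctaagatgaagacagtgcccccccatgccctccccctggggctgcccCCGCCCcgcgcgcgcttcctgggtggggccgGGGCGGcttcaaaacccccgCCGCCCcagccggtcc
Tgfbi: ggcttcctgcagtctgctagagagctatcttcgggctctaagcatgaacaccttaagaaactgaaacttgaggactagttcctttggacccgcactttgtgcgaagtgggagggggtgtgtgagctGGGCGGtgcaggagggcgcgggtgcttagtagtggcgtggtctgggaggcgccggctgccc
Tgfb2: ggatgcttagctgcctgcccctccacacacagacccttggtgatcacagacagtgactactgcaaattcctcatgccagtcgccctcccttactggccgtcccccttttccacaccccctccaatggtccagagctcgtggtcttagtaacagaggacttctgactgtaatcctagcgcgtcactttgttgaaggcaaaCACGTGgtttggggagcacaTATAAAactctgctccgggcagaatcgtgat
Ltbp1: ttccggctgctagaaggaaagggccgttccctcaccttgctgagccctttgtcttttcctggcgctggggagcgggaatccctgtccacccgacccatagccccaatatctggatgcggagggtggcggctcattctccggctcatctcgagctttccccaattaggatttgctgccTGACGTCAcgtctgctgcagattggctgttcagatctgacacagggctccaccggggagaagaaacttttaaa
The Tgfb1 window held 5 GC boxes in 75.2% G and C, and no TATA box. The Tgfb2 window held a TATA box whose first base lay 31 bases before the start and an E-box 51 bases before it, in 53.6% G and C. The Ltbp1 window shown held a cAMP response element 73 bases before the start, and the Tgfbi window a GC box. Among all 32851 windows of 250 bases, 32.7% held a GC box, 12.4% a TATA box, 6.02% an E-box, 1.55% the cAMP response element, 6.75% the AP-1 site and 0.167% the SMAD binding element. Of the windows not shown, those of Tgfbr1 held 2 GC boxes and none, that of Inhba held a TATA box, and those of Tgfbr2 and of a second Ltbp1 start held no match. A match describes letters only, and gene-level values do not separate the starts of a gene.

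The values behind these differences are given per library in FPKM, read counts divided by gene length and by library size, so that levels of different genes can be compared. Tgfb1 encodes the main TGF-β of immune cells (ENSMUSG00000002603, chromosome 7, 25687002 to 25705077, plus strand) and stood at 28.5, 26.1 and 27.8 FPKM in PBS replicates 1, 2 and 3 and at 56.3, 57.4 and 55.5 FPKM in cisplatin replicates 1, 2 and 3. The groups did not overlap, as was the case for 8 of the 10 genes and for 72.4% of all tested genes. The log2 fold change of Tgfb1 on log2(FPKM + 1) was 1.01 (SE 0.042), just past the calling threshold, and it fell short of it without PBS replicate 2, at 0.98. When the libraries were instead scaled to equal levels of 4 Y-linked genes, which shifted the overall median log2 fold change to -0.83, the value for Tgfb1 was 0.041.

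Tgfb2, a ligand gene best known from epithelial and mesenchymal development (ENSMUSG00000039239, chromosome 1, 186622792 to 186705989, minus strand), stood at 14.3, 15.3 and 15.3 FPKM in the PBS libraries and at 1.26, 1.42 and 1.08 FPKM in the cisplatin libraries. Tgfb3, a ligand gene known for its part in palate closure (ENSMUSG00000021253, chromosome 12, 86056745 to 86079041, minus strand), stood at 17.7, 17.3 and 16.9 FPKM with PBS and at 2.05, 1.62 and 1.59 FPKM with cisplatin. All cisplatin libraries were far below all PBS libraries for both genes. The log2 fold changes were -2.83 (SE 0.072) for Tgfb2 and -2.74 (SE 0.075) for Tgfb3, and only 0.833% and 0.952% of tested genes had a change larger in size. The low values rested on 103 to 135 reads per library for Tgfb2 and 89 to 118 for Tgfb3, recovered from the deposited values. The log2(FPKM + 1) scale understates changes at such levels, and with a pseudocount of 0.1 the changes were -3.49 and -3.24.

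The make-up of the ligand transcripts differed while their sums overlapped on the deposited scale. The summed FPKM of Tgfb1, Tgfb2 and Tgfb3 was 59.8 ± 0.89 with PBS and 59.4 ± 1.12 with cisplatin (SD, n = 3 each). Tgfb1 made up 45.9% ± 1.34 of this sum with PBS and 94.9% ± 0.48 with cisplatin. The share of Tgfb2 was 25.1% ± 1.30 with PBS and 2.10% ± 0.25 with cisplatin, and that of Tgfb3 was 29.0% ± 0.69 and 2.95% ± 0.42. The groups did not overlap in any of the 3 shares, which no scaling of a library alters. The sum does depend on scaling, and with the libraries scaled to equal Y-linked levels it was 84.6 ± 5.67 with PBS and 42.0 ± 1.07 with cisplatin (SD, n = 3 each), a calculation added after the values were seen. They are shares of transcript level and say nothing of secreted or active protein.

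**Figure D1:**
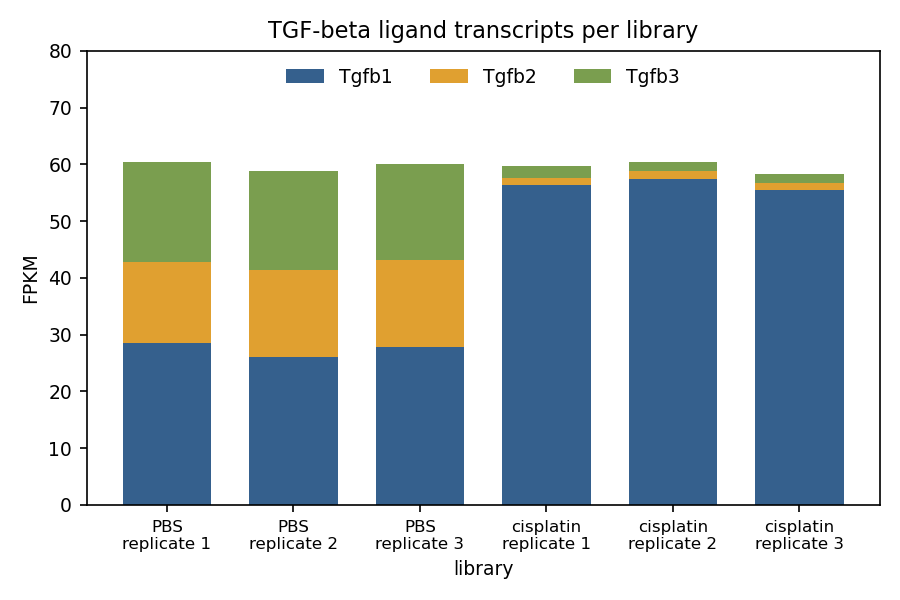
Stacked bars give the FPKM of Tgfb1, Tgfb2 and Tgfb3 in each of the 6 libraries, from 0. On the deposited scale the total height runs from 58.2 to 60.5, while Tgfb1 fills 44.4% to 47.0% of the PBS bars and 94.4% to 95.4% of the cisplatin bars.

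RNA of more than 1 cell type was present in these libraries, and marker levels are given beside those of the called genes. All 8 macrophage markers (Adgre1, Csf1r, Cd68, Itgam, Lyz2, Cd14, Mertk and Fcgr1) were higher with cisplatin. Itgam, Lyz2 and Mertk were called, Mertk having passed the filter only through the cisplatin libraries, and the summed level of all 8 was 1635 to 1647 FPKM with PBS and 4187 to 4341 FPKM with cisplatin, 2.58-fold higher and mostly Lyz2. Without Lyz2 the other 7 summed to 474 to 489 FPKM and 775 to 790 FPKM, 1.63-fold higher, and single markers ranged from 1.15-fold (Cd68) to 5.90-fold (Mertk), beside 2.06-fold for Tgfb1 and 3.70-fold for Tgfbi. Of 14 ID8 and mesothelial markers, 10 were tested and 8 were called lower, and their summed level went from between 1311 and 1414 FPKM with PBS to between 247 and 268 FPKM with cisplatin, 5.29-fold lower. Of the other 2 tested, Msln was 1.64-fold lower and Cdh1 was 1.67-fold higher. Krt7, Lrrn4, Igfbp5 and Epcam were under 0.5 FPKM in all 6 libraries. The 8 called markers were 2.35-fold (Upk1b) to 11.5-fold (Krt19) lower, with Wt1 at 11.1-fold and the other 5 at 3.74-fold to 6.26-fold, beside 11.97-fold for Tgfb2, 9.87-fold for Tgfb3 and 3.90-fold for Ltbp1. Of 8 fibroblast markers 3 were tested and 1, Dcn, was called lower, with a summed level of 58.7 to 62.6 FPKM with PBS and 21.8 to 24.4 FPKM with cisplatin, most of it Dcn. Thy1 in that list was 1.72-fold higher, and Col1a2, Col3a1 and Lum were under 0.5 FPKM throughout. For 6 megakaryocyte and platelet markers the summed level was 27.8 to 33.1 FPKM with PBS and 255 to 280 FPKM with cisplatin, mostly Pf4 and Ppbp. The rest of that list did not move as 1, with Itga2b 2.44-fold higher. Mean levels of Gp1ba were 0.998 FPKM with PBS and 1.08 FPKM with cisplatin, and those of Gp9 were 0.36 and 0.70 FPKM. Gp6, under 0.5 FPKM throughout, was lower with cisplatin, at means of 0.20 and 0.044 FPKM. The summed level of 8 lymphocyte markers was 113 to 121 FPKM with PBS and 267 to 274 FPKM with cisplatin, led by Cd79a, with Cd3e under 0.5 FPKM. That of 4 Y-linked genes was 19.5 to 22.7 FPKM and 41.6 to 42.8 FPKM. The part of these cell types in the results on the 10 genes was not tested.

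**Figure D2:**
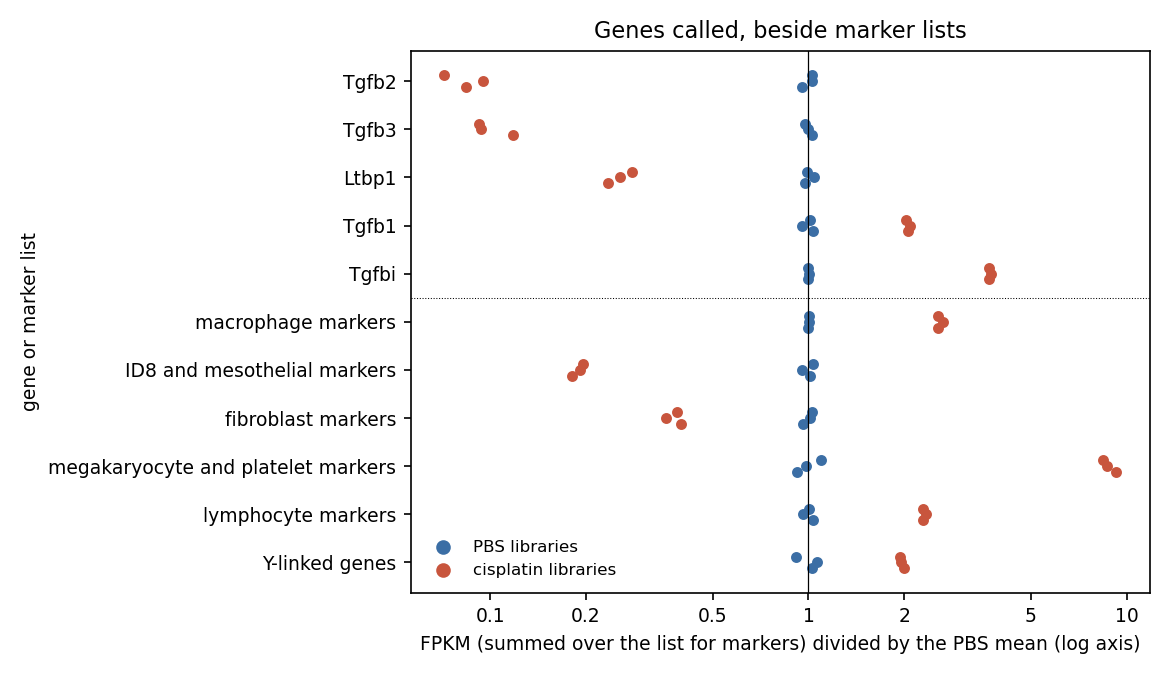
Points give each library's FPKM divided by the mean of the 3 PBS libraries, on a log axis, for the 5 called genes (above the dotted line) and for the summed markers of each cell type (below it), PBS in blue and cisplatin in red. The cisplatin libraries lie at 0.0719 to 0.0947 for Tgfb2 and at 0.180 to 0.195 for the ID8 and mesothelial markers, and at 2.02 to 2.09 for Tgfb1 and 2.55 to 2.64 for the macrophage markers, whose sum is mostly Lyz2.

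Among the receptors, Tgfbr1 encodes the type I receptor kinase (ENSMUSG00000007613, chromosome 4, 47353222 to 47414931, plus strand). It stood at 12.9, 13.5 and 11.99 FPKM with PBS and at 18.9, 17.8 and 17.9 FPKM with cisplatin. Every cisplatin library was above every PBS library, with a log2 fold change of 0.48 (SE 0.054) that was below the calling threshold and turned to -0.46 under the Y-linked scaling. Tgfbr2 encodes the type II receptor, the part that binds ligand first (ENSMUSG00000032440, chromosome 9, 116084293 to 116175360, minus strand). It stood at 23.8, 24.1 and 23.5 FPKM with PBS and at 23.5, 25.6 and 23.7 FPKM with cisplatin. The groups overlapped, with a log2 fold change of 0.025 (SE 0.044) whose sign changed with the processing. The ratio of Tgfbr2 to Tgfbr1, which no scaling of a library alters, was 1.87 ± 0.091 with PBS and 1.34 ± 0.099 with cisplatin (SD, n = 3 each). Tgfbr3 encodes betaglycan, a co-receptor that presents ligand, TGF-β2 above all, to the type II receptor (ENSMUSG00000029287, chromosome 5, 107106570 to 107289629, minus strand). It was the lowest of the 10 genes in both groups, at 1.51, 1.88 and 1.63 FPKM with PBS and at 1.02, 0.78 and 0.90 FPKM with cisplatin, on 84 to 192 reads per library. The groups did not overlap and the log2 fold change was -0.49 (SE 0.10), not called. It passed the filter only through the PBS libraries, where it was higher.

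Smad7 encodes an inhibitory SMAD that is itself induced by TGF-β and shuts the type I receptor down (ENSMUSG00000025880, chromosome 18, 75367529 to 75395935, plus strand). It stood at 5.44, 5.17 and 5.65 FPKM with PBS and at 4.94, 5.13 and 5.22 FPKM with cisplatin. The groups overlapped, and the log2 fold change of -0.073 (SE 0.054) turned positive under quantile normalisation, at 0.037, and when the libraries were scaled to their total reads, at 4.9e-05, and was -0.91 under the Y-linked scaling. Tgfbi, the other gene of the list named as a target (ENSMUSG00000035493, chromosome 13, 56609523 to 56639562, plus strand), stood at 13.7, 13.8 and 13.7 FPKM with PBS and at 50.5, 51.3 and 50.5 FPKM with cisplatin. Its groups were far apart, with a log2 fold change of 1.81 (SE 0.032), which was 0.86 under the Y-linked scaling, still positive but no longer called.

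Ltbp1 encodes a matrix protein that binds the latent complex and stores it outside the cell (ENSMUSG00000001870, chromosome 17, 75005568 to 75392512, plus strand). It stood at 13.2, 14.1 and 13.4 FPKM with PBS and at 3.19, 3.47 and 3.80 FPKM with cisplatin. All cisplatin libraries were below all PBS libraries, with a log2 fold change of -1.70 (SE 0.064). Inhba encodes the βA subunit, which forms activin A as a homodimer (ENSMUSG00000041324, chromosome 13, 16011851 to 16031621, plus strand). It stood at 8.88, 8.14 and 8.29 FPKM with PBS and at 12.7, 11.3 and 11.9 FPKM with cisplatin. The groups did not overlap, and the log2 fold change of 0.46 (SE 0.057) was below the threshold and turned to -0.45 under the Y-linked scaling. In the annotation Inhba overlaps the pseudogene B230303A05Rik on the opposite strand, itself at a mean of 5.63 FPKM with PBS and 3.62 FPKM with cisplatin, and Tgfb3 overlaps Ttll5 on the opposite strand. Whether reads were counted by strand is not given in the sources used here, so the values of Inhba and Tgfb3 are less certain.

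**Figure D3:**
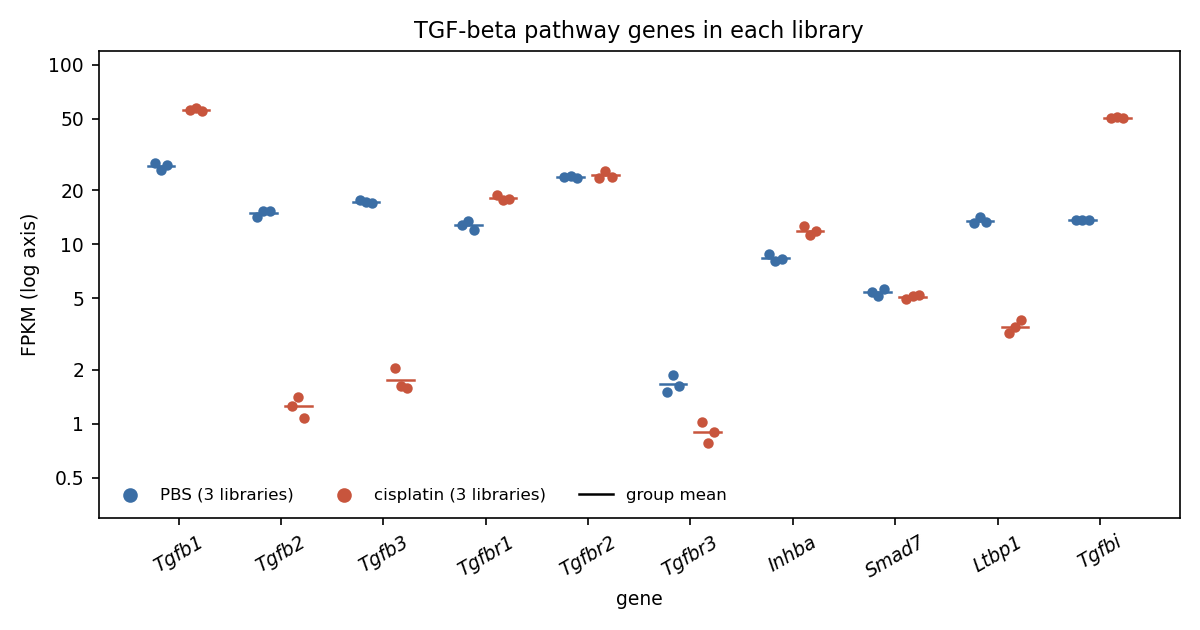
Points give the FPKM of each of the 10 genes in each library on a log axis, PBS in blue and cisplatin in red, with the mean of 3 libraries as a bar. Tgfb2 and Tgfb3 drop from 14.3 or more to 2.05 or less, Tgfb1 and Tgfbi lie near 50 with cisplatin, and the points of Tgfbr2 and Smad7 overlap between the groups.

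The order of the levels differed between the groups. With PBS, Tgfb1 stood highest, followed by Tgfbr2, Tgfb3, Tgfb2, Tgfbi, Ltbp1, Tgfbr1, Inhba, Smad7 and Tgfbr3, and only the neighbours Tgfbi and Ltbp1 and the neighbours Ltbp1 and Tgfbr1 overlapped over the 3 libraries. With cisplatin the order was Tgfb1, Tgfbi, Tgfbr2, Tgfbr1, Inhba, Smad7, Ltbp1, Tgfb3, Tgfb2 and Tgfbr3, with no overlap between neighbours. Tgfb2 moved from above 70.6% of all tested genes to above 10.4% of them, and Tgfb3 from above 74.5% to above 17.2%. Tgfb1 moved from above 84.4% to above 94.1%, and Tgfbi from above 67.9% to above 93.2%.

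By the distance between centred log2(FPKM + 1) profiles over the 6 libraries, the genes most like Tgfb2 among 11600 compared were Adamts7 (distance 0.087), Wnt6 (0.11), Myrf (0.12), Rsad2 (0.13) and B3gnt3 (0.16). These profiles carry the same contrast between groups, and Adamts7 went from a mean of 22.2 to 2.15 FPKM.

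A further 118 genes of the pathway, listed by role, were read beside the 10. Earlier results of these data were known when the lists were written. Adjusted p-values printed for these genes therefore describe size and spread only and are no independent test. Of the 118 genes, 72 were tested, and 5 were called higher and 24 lower, against 4.67% and 11.3% of all tested genes. Their median log2 fold change was -0.41. Of the 72, 16 had fewer than 3 libraries at 1 FPKM in 1 or both groups. All of them but Gdf11 met the filter in a single group and so owed their place to the group where they were high. Gdf11 passed on libraries of both groups together, at means of 1.08 FPKM with PBS and 1.25 FPKM with cisplatin. The 16 are Inhbb, Bmp2, Gdf11, Lefty1, Amhr2, Rgmb, Ltbp4, Itgb8, Fbn1, Fst, Chrd, Zfyve9, Ctgf, Tmem119, Olfml3 and Fcrls. They hold 1 of the higher and 10 of the lower calls, and their values are given without p. The other 56 genes hold 4 higher and 14 lower calls, with a median log2 fold change of -0.29. At the adjusted p alone, 19 of these 56 were higher and 30 lower, where 32.9% and 35.1% of all tested genes were, and 68.0% either way. Dcn, Col1a1, Col1a2 and Col3a1 are also in the fibroblast list given above. The part of ID8 and other cells in the lower values was not tested for these genes either.

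Genes of latency and ligand activation held 10 calls, 3 higher and 7 lower among 15 tested, or 3 and 4 among 12 without Ltbp4, Itgb8 and Fbn1. Over all tested genes 4.67% were called higher and 11.3% lower. Ltbp3, which encodes another latent TGF-β binding protein, stood at 88.5, 89.1 and 91.1 FPKM with PBS and at 10.9, 11.7 and 11.7 FPKM with cisplatin (log2 fold change -2.87, SE 0.040, adjusted p = 4.49e-08). Ltbp4, which encodes a further family member, was at 4.42 ± 0.25 FPKM with PBS and 0.37 ± 0.018 FPKM with cisplatin (SD, n = 3 each). Ltbp1, Ltbp3 and Ltbp4 summed to 107.6 ± 1.39 FPKM with PBS and 15.3 ± 0.72 FPKM with cisplatin. Nrros, which encodes the surface protein that carries latent TGF-β1 on myeloid cells, went the other way, with means of 24.8 ± 0.62 under PBS and 63.6 ± 3.32 FPKM under cisplatin (log2 fold change 1.32, adjusted p = 7.53e-07). The ratio of Nrros to Ltbp3 was 0.277 ± 0.0093 with PBS and 5.57 ± 0.51 with cisplatin (SD, n = 3 each). The call on Nrros was lost under the Y-linked scaling, at 0.35, as was that on the membrane protease gene Mmp14, which went from 11.8 ± 0.44 to 36.9 ± 0.26 FPKM and from a log2 fold change of 1.57 (adjusted p = 1.95e-07) to 0.62. Thbs1, which encodes thrombospondin 1, a matrix protein that can activate latent TGF-β, rose from 136 ± 4.43 to 929.6 ± 4.95 FPKM (log2 fold change 2.76, adjusted p = 3.02e-08). Itgb5, an integrin β chain gene, fell from 44.8 ± 1.41 to 11.5 ± 0.28 FPKM (log2 fold change -1.87, adjusted p = 1.08e-07).

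Of the activin and inhibin subunit genes, Inhbb, which encodes the βB subunit of activin B, stood at 4.40, 4.42 and 5.27 FPKM with PBS and at 0.69, 1.13 and 0.80 FPKM with cisplatin (log2 fold change -1.61, SE 0.11). The difference of Inhba described above was not called and its sign depended on the scaling. Inha, which encodes the inhibin α subunit, was below the filter, at 1.14 ± 0.32 FPKM with PBS and 0.11 ± 0.063 FPKM with cisplatin. Fst, which encodes follistatin, a protein that traps activins, was at 0.62 ± 0.21 and 1.84 ± 0.29 FPKM (log2 fold change 0.81) and was not called. The activin receptor genes Acvr1b and Acvr2a both had log2 fold changes of -0.41 and were not called. Of 6 other ligand genes tested, Inhbb and Lefty1, which encodes an inhibitor of Nodal signalling, were called lower and none higher. Both met the filter through the PBS libraries alone, while 22 of 28 were below it. Over all tested genes 11.3% were called lower and 4.67% higher. Lefty1 was at 3.95 ± 0.77 FPKM with PBS and 1.09 ± 0.41 FPKM with cisplatin (SD, n = 3 each). Gdf15, which encodes a stress-induced ligand of the family, had a log2 fold change of 0.25 and was not called.

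Of 9 other receptor genes tested, 2 were called lower, Bmpr1a and Amhr2, and none higher, beside 11.3% and 4.67% of all tested genes. Bmpr1a, which encodes a type I receptor for bone morphogenetic proteins (BMPs), stood at 12.9 ± 0.78 FPKM with PBS and 2.45 ± 0.34 with cisplatin (log2 fold change -2.02, adjusted p = 1.77e-06). Amhr2, the receptor gene for anti-Müllerian hormone, known from gonads and reproductive tract rather than from macrophages, was at 7.79 ± 0.21 FPKM with PBS and 0.30 ± 0.20 FPKM with cisplatin, on 30 reads in all 3 cisplatin libraries together. Among 6 SMAD genes tested, Smad6, which encodes the inhibitory SMAD of the BMP branch, was the call, at 6.23 ± 0.42 and 1.62 ± 0.31 FPKM (log2 fold change -1.47, adjusted p = 1.93e-05). The signal-carrying SMAD genes differed by less. Smad2 was at 12.9 ± 0.52 with PBS and 19.9 ± 0.53 FPKM with cisplatin, Smad3 at 29.7 ± 1.33 and 22.7 ± 1.004 FPKM, and Smad4, whose product is the shared partner, at 27.1 ± 1.64 and 23.0 ± 0.28 FPKM (SD, n = 3 each).

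Antagonists and intracellular regulators gave 4 lower calls and none higher among 15 tested, or 2 lower among 12 without Chrd, Zfyve9 and Fst. The shares called over all tested genes were 11.3% lower and 4.67% higher. Chrd, which encodes the BMP antagonist chordin, was at 3.41 ± 0.39 FPKM with PBS and 0.36 ± 0.083 FPKM with cisplatin. Dcn, which encodes decorin, a matrix proteoglycan that can bind TGF-β, had a log2 fold change of -1.68 (adjusted p = 4.89e-07). Zfyve9, which encodes the anchor protein that brings SMAD2 and SMAD3 to the receptor, was at 4.54 ± 0.31 FPKM with PBS and 0.86 ± 0.21 FPKM with cisplatin (SD, n = 3 each). At the adjusted p alone 4 of the 12 were higher and 4 lower, where 32.9% and 35.1% of all tested genes were. Among the 4 that did not pass, Ski, which encodes a SMAD co-repressor, was at 23.9 ± 0.54 and 24.0 ± 0.63 FPKM, and Ppm1a, a SMAD phosphatase gene, at 9.09 ± 0.049 and 9.01 ± 0.095 FPKM (SD, n = 3 each).

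Of 16 target genes of TGF-β tested, 15 met the filter in both groups, and 10 of these were lower and 3 higher at the adjusted p alone. At that threshold 35.1% of all tested genes were lower and 32.9% higher. Ctgf, also named Ccn2, which encodes a matricellular growth factor, was 43.4-fold lower, at 20.3 ± 1.28 FPKM with PBS and 0.47 ± 0.041 FPKM with cisplatin (SD, n = 3 each). Tsc22d1, which encodes a leucine zipper protein induced by TGF-β, fell from 38.7 ± 0.89 to 8.66 ± 0.19 FPKM (adjusted p = 7.82e-08). By the full calling rule, under which 11.3% of all tested genes were lower and 4.67% higher, 6 of the 15 were called lower and 1 higher. Ctgf was called lower beside them. The higher one was Acta2, which encodes smooth muscle actin, at 6.40 ± 0.17 and 23.9 ± 1.52 FPKM (log2 fold change 1.75, adjusted p = 4.64e-07), a call lost under the Y-linked scaling, at 0.84. Tgfbi and Tsc22d1, both known as TGF-β targets, thus lay in opposite directions in the same libraries. Among genes that depend on TGF-β in resident macrophages, mainly known from microglia, the calls among 5 tested were Fcrls and Olfml3, both of which passed the filter through a single group, as did Tmem119, which was 2.15-fold lower. Cx3cr1 was 2.05-fold and Hpgds 2.75-fold higher in mean FPKM, with log2 fold changes on log2(FPKM + 1) of 0.65 and 0.99, below the threshold. Fcrls was at 0.13 ± 0.089 FPKM with PBS and 2.64 ± 0.28 FPKM with cisplatin, on 15 reads in all PBS libraries and 307 in all cisplatin libraries. Olfml3 was at 4.10 ± 0.17 and 0.41 ± 0.15 FPKM.

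**Figure D4:**
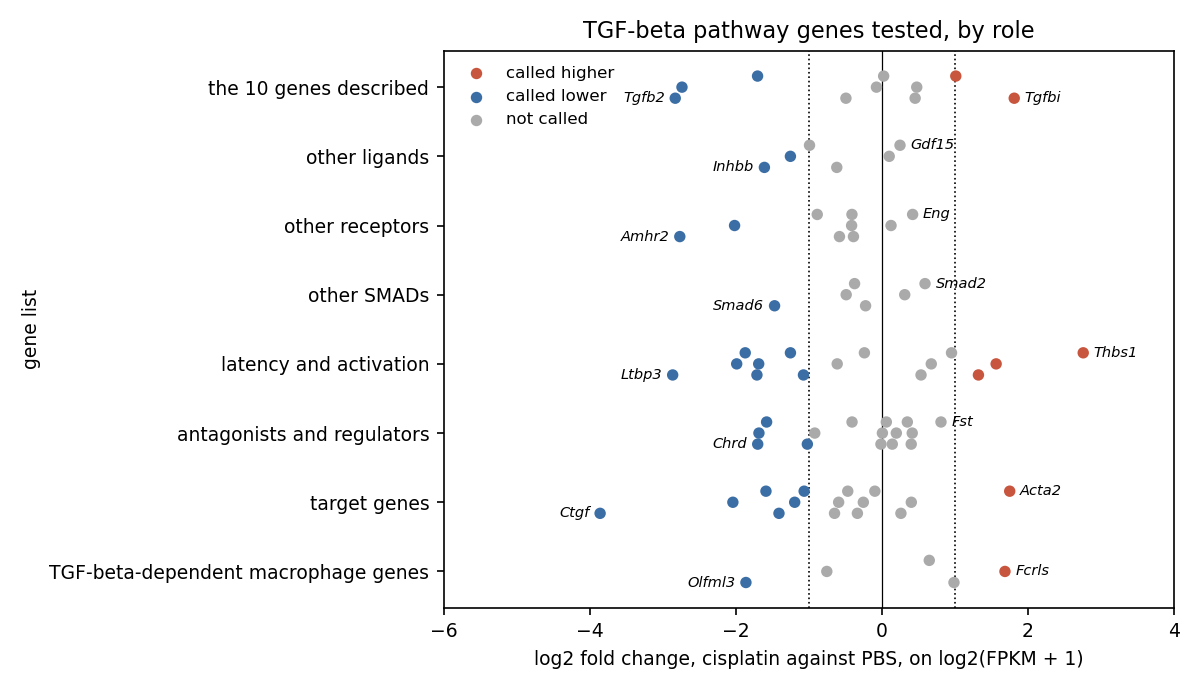
Points are tested genes, placed by its log2 fold change of cisplatin against PBS on log2(FPKM + 1), in the row of its role, and the dotted lines mark the fold change threshold. Of the 10 genes in the top row 2 are called higher (red) and 3 lower (blue). Ctgf lies at -3.86 and Thbs1 at 2.76.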

How the data were processed

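RNA-seq was analysed for 6 libraries, 3 from BMDMs co-cultured with cisplatin-pretreated ID8 cells and 3 from BMDMs co-cultured with PBS-pretreated ID8 cells, grouped by the treatment label. The authors deposited 1 table of FPKM values per gene and library. The submitters' processing notes name fastp, HISAT2 2.0.5, featureCounts 1.5.0-p3 and mm10, whereas the study's methods name LifeScope for alignment and counting. Values of all 10 genes carry coordinates identical to GENCODE M21 on GRCm38. FPKM times gene length was a whole multiple of a fixed step in 100% of values below 200 reads (tolerance 0.05), which gave 15776238 to 17924686 reads per library.

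Genes with at least 1 FPKM in at least 3 libraries were transformed to log2(FPKM + 1) and tested with limma 3.58.1 in R 4.3.3 (lmFit, eBayes with a trend, group as the only term), with Benjamini-Hochberg adjustment over all 13441 genes. Calls required an adjusted p below 0.05 together with an absolute log2 fold change no smaller than 1. The study's methods give the same 2 numbers but tested counts with a count model, whereas FPKM values call for a log scale. On log2(FPKM + 1) the fold threshold is stricter at low levels. Hpgds, for example, was 2.75-fold higher in mean FPKM but had a log2 fold change of 0.99 and was not called. The procedure was also run on simulated reads, with fewer changed genes than here and no set change as small as that of Tgfb1. That run therefore says nothing about calls near the threshold. Of each pathway list, up to 3 called genes in each direction, those with the largest changes, were to be named, with the 5 genes nearest to the member that changed most. Any further gene named was picked with its values in view. The 10 genes, the lists and the alternatives were chosen with earlier results of these data known. Promoter windows came from RefSeq on GRCm38.p6. A gene of the target list and a lymphocyte marker are counted in their lists but are not reported or drawn here by name.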

Additional observations from a re-analysis of the deposited data

How the results depend on the processing

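The 5 calls among the 10 genes were kept under every alternative except 2: Tgfb1 was not called without PBS replicate 2, nor Tgfb1 and Tgfbi under Y-linked scaling, which added Tgfbr3 as lower (-1.04). None of the 5 changed sign. Leaving out 1 library gave 1 to 2 of the 10 genes called higher. Y-linked scaling shifted the overall median to -0.83. It called 85 genes higher, in place of 628, and 5181 lower, in place of 1514, 0 of the 10 higher, and 2 pathway genes higher and 45 lower in place of 5 and 24. The adjusted p alone gave 4424 higher and 4721 lower, 4 of the 10 higher, and 21 pathway genes higher and 43 lower. A pseudocount of 0.1 gave 973 genes and 8 pathway genes higher, limma voom on recovered reads gave 1227 and 9, and a filter at 5 FPKM, which removed Tgfbr3, left 14 pathway genes lower. Of all calls, 29.3% were higher, against 39.3% under quantile normalisation (median 0.10), 39.7% under voom and 1.61% under Y-linked scaling. The sign of Tgfbr1 and Inhba turned under Y-linked scaling, that of Tgfbr2 there (-0.93) and in a fit leaving out 1 library (-0.012), and that of Smad7 under quantile normalisation and under scaling to total reads, an alternative chosen after seeing the data. Y-linked scaling divides each library by its Y-linked level, which by summed FPKM was 1.97-fold higher with cisplatin. It therefore lowers every cisplatin value against PBS by construction. Except for that scaling, the filter and the removal of libraries, the cause of these shifts was not tested. Replicate numbers are shared between the groups, but same-numbered libraries did not deviate together (r from -0.10 to -0.024), and the replicate block gave 625 genes higher and 1515 lower with the same 5 genes called. Counting depth limits Tgfbr3 and the cisplatin values of Tgfb2 and Tgfb3 most.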
